A study of Mus musculus with 9 samples.

Results

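The 3 libraries described here hold messenger RNA of CD133-positive cells from kidneys of control mouse embryos, and they were chosen by their labels from the 9 libraries of the series, which fall into 3 groups of 3. The control embryos carried the genotype Tsc1 fl/fl, with floxed alleles of the hamartin gene and no Cre transgene named for them. The titles of these samples use the words wild type for this genotype. They were of the strain CD1, and the pregnant dams had received the vehicle DMSO by intraperitoneal injection every other day from E12.5 to E16.5 of gestation. Kidneys were taken at E18.5, digested with collagenase and dispase, and stained with an antibody to CD133, which is prominin-1, and the stained cells were sorted. The labels name the sorted cells proximal tubule cells. They do not say whether a replicate is a single embryo, a litter or a pool, so the spread given below is that between 3 libraries and may be partly technical. No other group is used here, and with a single group no difference between conditions was tested: what follows are levels, their order and their spread.

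The proximal tubule is the stretch of the nephron that takes back most of the filtered water, salt, glucose, amino acids, phosphate and protein, through transporters and endocytic receptors set in a brush border of microvilli. Prominin-1 is a membrane protein of such microvilli and of other cell protrusions, and it is also found on the parietal cells that line the glomerular capsule and on immature epithelium. In the late embryonic kidney new nephrons are still forming at the rim, where nephron progenitors around the branching ureteric bud turn into renal vesicles, while nephrons nearer the centre already hold young segments.

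Levels are given as TPM (transcript abundance per length), that is, the read count of a gene divided by the bases of its annotated exons and scaled to 1000000 in each library, so that genes of different length can be set beside each other. Wherever 3 levels follow each other they belong to controls 1, 2 and 3, in that order, and a mean is followed by its SD (n = 3 libraries). Ranks run over 21999 protein-coding genes of the nuclear genome, from the most abundant down. A gene counts as detected when it reached 1 TPM in each of the 3 libraries.

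The libraries held 25628475, 29805945 and 29811366 counted reads in controls 1, 2 and 3. Spearman's rho between 2 libraries, over genes, lay between 0.982 and 0.987, which describes likeness across genes that are not independent of each other. The chi-square per degree of freedom between the counts of 2 libraries was at least 49.6, so none was treated as a repeat deposit of another. Control 1 stood apart in several ways. Reads on 4 genes that lie by or resemble ribosomal RNA (Gm42418, Gm26917, AY036118 and Lars2) made up 8.14% of its counts, 1.62% of control 2 and 0.777% of control 3. The libraries held 0, 965 and 448 counts of the Y-linked gene Ddx3y in controls 1, 2 and 3, so control 1 showed no RNA of this gene, while Xist, the RNA of the inactive X chromosome, stood at 519, 292 and 147 TPM. Controls 2 and 3 held RNA of both genes.

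Promoters are shown for 4 of the 5 marker genes, and for Pdzk1, an abundant proximal tubule gene whose promoter holds a match to the site of HNF4, a regulator of the segment. Each run is 300 bases of the mouse build GRCm38.p6 as RefSeq gives it, from 250 bases before the transcription start to 50 after it, 5′ to 3′ on the strand of the gene. Capitals mark matches on either strand, anywhere in the run. The letters TATAAA of a core promoter box are called a TATA box below, wherever in the run they lie. GGGCGG, the binding letters of the factor Sp1, is called a GC box below. The others are CCAAT, of the factor NF-Y, and CAAAGTCCA, of the nuclear receptor HNF4. RefSeq's starts need not be those of the deposited gene table. For Prom1 and Pdzk1, which have 2 listed promoters each, the one farthest upstream is shown. The promoter shown for Prom1 lay at chr5:44101687-44101986 on the minus strand, that of Lrp2 at chr2:69585980-69586279 on the minus strand and that of Slc34a1 at chr13:55399398-55399697 on the plus strand. Those of Aqp2 and Pdzk1 lay on the plus strand at chr15:99578806-99579105 and chr3:96829815-96830114.
Prom1: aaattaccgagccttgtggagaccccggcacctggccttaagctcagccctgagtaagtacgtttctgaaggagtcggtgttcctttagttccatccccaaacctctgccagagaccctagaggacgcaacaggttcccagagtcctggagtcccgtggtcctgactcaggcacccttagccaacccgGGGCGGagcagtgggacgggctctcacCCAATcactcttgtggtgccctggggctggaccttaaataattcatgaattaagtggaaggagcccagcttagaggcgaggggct
Lrp2: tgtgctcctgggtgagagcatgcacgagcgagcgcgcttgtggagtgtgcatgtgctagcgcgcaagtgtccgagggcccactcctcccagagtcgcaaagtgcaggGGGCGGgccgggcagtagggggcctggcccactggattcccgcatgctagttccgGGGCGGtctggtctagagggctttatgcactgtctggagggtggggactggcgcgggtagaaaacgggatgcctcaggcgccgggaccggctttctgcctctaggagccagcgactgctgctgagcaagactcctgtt
Slc34a1: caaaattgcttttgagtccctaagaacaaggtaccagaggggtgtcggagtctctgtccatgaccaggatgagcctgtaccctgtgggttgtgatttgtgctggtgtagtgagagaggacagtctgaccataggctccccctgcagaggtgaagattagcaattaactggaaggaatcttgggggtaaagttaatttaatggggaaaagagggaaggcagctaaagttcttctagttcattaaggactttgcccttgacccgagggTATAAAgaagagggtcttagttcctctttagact
Aqp2: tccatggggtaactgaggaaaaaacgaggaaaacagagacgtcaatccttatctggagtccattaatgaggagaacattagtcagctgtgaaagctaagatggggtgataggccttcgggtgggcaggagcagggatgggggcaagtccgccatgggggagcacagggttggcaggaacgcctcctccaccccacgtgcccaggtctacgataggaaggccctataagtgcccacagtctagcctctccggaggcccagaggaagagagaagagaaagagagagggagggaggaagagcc
Pdzk1: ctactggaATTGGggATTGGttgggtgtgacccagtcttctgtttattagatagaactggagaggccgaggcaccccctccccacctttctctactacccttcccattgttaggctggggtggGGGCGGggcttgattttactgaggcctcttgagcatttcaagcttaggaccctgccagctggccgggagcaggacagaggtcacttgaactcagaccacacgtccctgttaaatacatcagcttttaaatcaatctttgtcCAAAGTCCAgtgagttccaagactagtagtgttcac

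The epithelial genes shown differed in the letters their promoters held. Prom1 held a GC box and a CCAAT box, and Lrp2 held 2 GC boxes and 20 CG pairs. Slc34a1 held 2 CG pairs and the letters TATAAA, which began at base 267 of the run and so after the listed start. The median over all promoters was 7 CG pairs. Aqp2 held none of the letters searched. Pdzk1 held the HNF4 letters from base 265, likewise after the listed start. It also held a GC box and 2 CCAAT boxes on the minus strand, which appear as ATTGG in the run. A match is a description of the letters and not evidence of a bound site, and no match says only that these letters are not in this window. Over all 32851 listed promoters, 13.6% held a TATA box, 35.7% a GC box, 37.4% a CCAAT box and 0.475% the HNF4 letters.

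The labelled sort antigen was present. Prom1 (chr5:43993620-44102032 on the minus strand of GRCm38, ENSMUSG00000029086) stood at 47.0, 62.1 and 46.3 TPM, a mean of 51.8 ± 8.93 TPM that placed it at rank 3796 of 21999. Its 3 libraries lay close together, with control 2 the highest. Its paralog Prom2 averaged 0.389 ± 0.125 TPM. Epcam, an adhesion molecule of epithelium, was more abundant than Prom1 in every control library, at 119, 167 and 155 TPM. Cd24a, a surface protein of immature epithelium and of many other cells, averaged 612 ± 75.3 TPM, and Cdh1, the epithelial cadherin, averaged 104 ± 18.3 TPM. Havcr1, the kidney injury molecule of damaged proximal tubule, had 1, 0 and 1 counts. That sum of 2 counts is under the limit that 3 counts per library set, which corresponds to 0.171 TPM.

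Lrp2 encodes megalin, the large endocytic receptor of the proximal tubule. The gene (chr2:69424340-69586065, minus strand, ENSMUSG00000027070) stood at 90.6, 104 and 59.2 TPM, with control 3 lowest and control 2 highest. Slc34a1, the main sodium phosphate cotransporter of the segment (chr13:55398187-55415592, plus strand, ENSMUSG00000021490), stood at 49.2, 78.2 and 77.1 TPM, with control 1 below controls 2 and 3. Of its exon bases 11.7% overlap a gene on the other strand, and whether counting used strand is not given in the sources used here. Col1a1, the main fibrillar collagen chain of fibroblasts (chr11:94936224-94953042, plus strand, ENSMUSG00000001506), stood far above both, at 710.1, 759.7 and 751 TPM. Aqp2, the vasopressin-regulated water channel of collecting duct principal cells (chr15:99579055-99584547, plus strand, ENSMUSG00000023013), stood at 109, 80.7 and 158 TPM. Col1a1 thus ranked 120, Aqp2 1429, Lrp2 2167 and Slc34a1 2815, and the ranges of Aqp2 and Lrp2, and of Lrp2 and Slc34a1, overlapped between libraries. Length mattered for this order: Lrp2, with 16701 exon bases, drew 32096 reads in all and Aqp2, with 1419, drew 3828, yet per length Aqp2 had the higher mean. The sorted material therefore held RNA of the proximal tubule together with RNA of collecting duct and of stroma, and the name proximal tubule cells does not cover it. In such bulk libraries, fewer cells of a type and less RNA per cell cannot be told apart.

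**Figure D1:**
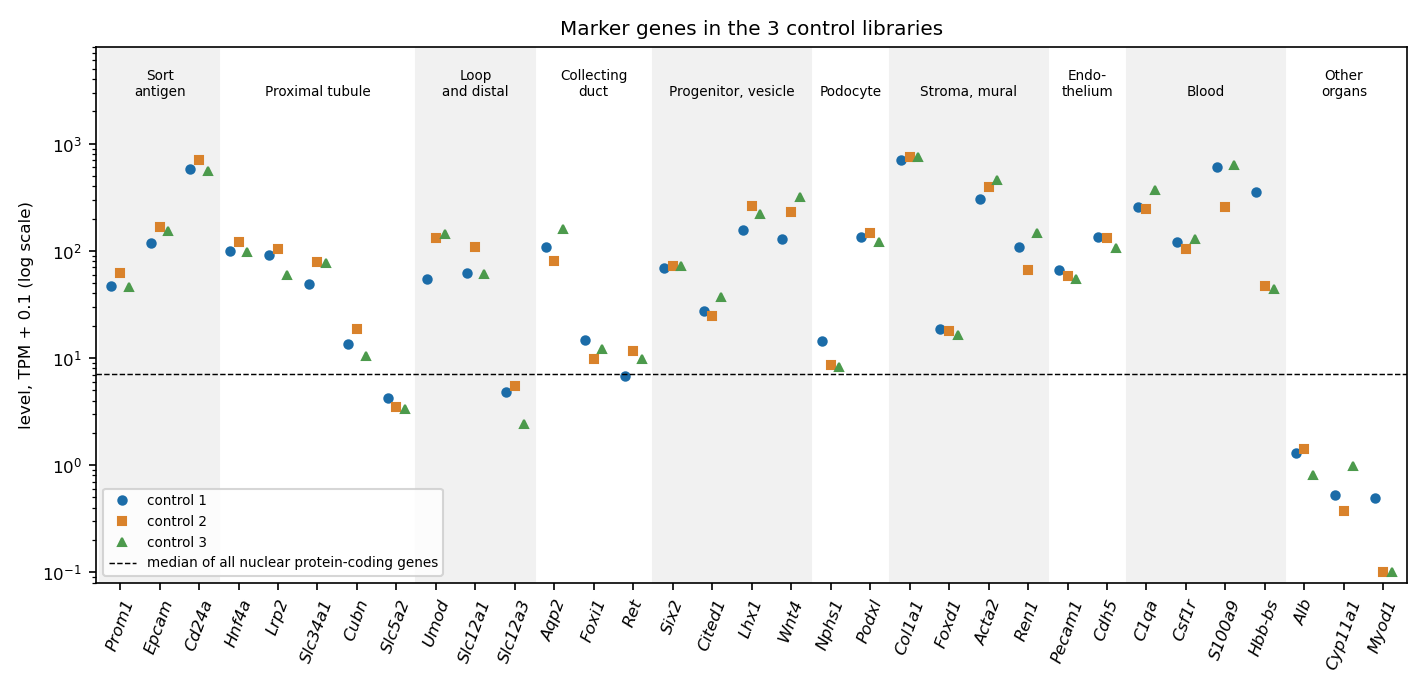
Levels of marker genes in the 3 control libraries, as TPM plus 0.1 on a log scale, grouped by the cells they mark, with circles for control 1, squares for control 2, triangles for control 3 and a dashed line at the median of all nuclear protein-coding genes (6.95 TPM). Markers of stroma, nephron progenitors, endothelium and macrophages stand above that line in every control library, as do those of the proximal tubule except Slc5a2. Slc5a2 lies below it, as do Alb, Cyp11a1 and Myod1 of other organs.

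The profile as a whole was wide. Of the 21999 nuclear protein-coding genes, 13405 (60.9%) were detected, 9576 (43.5%) reached 10 TPM in every control library and 1427 (6.49%) reached 100 TPM. These shares are the background for every count of list members given below. By mean level, 8137 genes lay under 1 TPM and 78 lay at 1000 TPM or more. Genes of translation led the list. Eef1a1, the elongation factor that brings transfer RNA to the ribosome, ranked 1 at 10299.5, 11947 and 13397 TPM, and 13 of the 20 most abundant genes and 51 of the 100 most abundant encoded ribosomal proteins. The other leading genes were Ptma (prothymosin alpha, rank 2, 5606 TPM), the elongation factor Eef2 (4278 TPM), the cytoskeletal genes Actb (4218 TPM) and Tubb5 (2416 TPM), the chaperone gene Hsp90ab1 (3528 TPM) and Tpt1 (2453 TPM). The 100 most abundant genes of any kind held 32.3%, 25.5% and 25.2% of all TPM in controls 1, 2 and 3, a mean of 27.7% ± 4.02.

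Some further abundant genes were picked after their values were seen and stand for no theme. Gpc3, a glypican that restrains growth in the embryo, ranked 26 at 1683, 1947 and 1846 TPM. Serpinh1, the collagen chaperone, ranked 33 (1604 ± 156 TPM), Mdk, the growth factor midkine, ranked 38 (1471 ± 407 TPM) and Col4a1, a chain of basement membrane collagen, ranked 41 (1433 ± 103 TPM). H19, a non-coding RNA expressed from the maternal chromosome in the embryo, was the most abundant gene of another biotype away from ribosomal RNA, at 4641, 3821 and 4040.3 TPM. Igf2, its imprinted neighbour and a fetal growth factor, averaged 47.7 ± 16.4 TPM, but 62.8% of its exon bases overlap another gene on the same strand, so its count is uncertain. Gm42418, at the ribosomal RNA locus of chromosome 17, was listed at 105961, 29906 and 11954 TPM, and Lars2, a mitochondrial leucyl-tRNA synthetase gene, at 6082, 447 and 269.5 TPM. Control 1 was highest for these 2 genes by a wide margin, and Lars2 ranked 21 with that library and 329 without it.

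Some abundant genes could not be ranked from these counts. Of the 13 protein genes of the mitochondrial genome, mt-Cytb stood at 13032, 14802 and 9398 TPM and mt-Co1 at 12799.6, 13561 and 7632 TPM, while mt-Co3 stood at 5.59, 4.79 and 2.59 TPM, although all are subunits of the respiratory chain. The nuclear genome holds copies of mitochondrial sequence, and how reads that match several places were treated is not given in the sources used here. Ribosomal protein genes have many processed pseudogenes, which bears on their counts in the same way. Their summed level was 75572, 89988 and 120438 TPM in controls 1, 2 and 3, highest in control 3.

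Proximal tubule genes were set out in 5 lists with 109 genes in all. Of these, 88 (80.7%) were detected, against the 60.9% of all nuclear protein-coding genes, and 50 (45.9%) reached 10 TPM in every control library, against 43.5%. Only 7 (6.42%) reached 100 TPM in every control library, against 6.49%, so the share of very abundant genes was near that of all genes. The lists were written with the study's label in view, and the counts describe them without a test. Their median level was 11.4 TPM, against 6.95 TPM over all nuclear protein-coding genes.

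Of the 10 regulators of the segment, 8 (80%) were detected, against 60.9% of all nuclear protein-coding genes. Hnf4a, required for proximal tubule maturation in the mouse, stood at 99.7, 120.5 and 98.4 TPM, and the 3 libraries lay close. Maf averaged 60.5 ± 11.0 TPM. Hnf4g averaged 3.41 ± 1.05 TPM, the bile acid receptor gene Nr1h4 3.48 ± 0.925 TPM and Ppara, a regulator of fatty acid oxidation, 2.77 ± 0.64 TPM. Nr0b2 and the antisense gene Hnf4aos were the 2 that were not detected.

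All 9 genes of the endocytic list were detected and all 9 reached 10 TPM in every control library. Over all nuclear protein-coding genes these shares were 60.9% and 43.5%. Lgmn, the lysosomal protease legumain, was highest at 256, 316 and 399 TPM, and Fcgrt, the neonatal Fc receptor that recycles albumin and immunoglobulin, averaged 198 ± 39.0 TPM. Legumain is also made by macrophages, whose genes were present. Dab2, the adaptor that links megalin to clathrin, stood at 138, 136 and 96.7 TPM. Cubn, the cubilin receptor that works with megalin, averaged 14.0 ± 4.08 TPM and was lowest in control 3, as was Lrp2. The Lrp2 level was 6.83, 5.65 and 5.69 times that of Cubn in controls 1, 2 and 3. Amn, the anchor protein of cubilin, averaged 25.2 ± 4.31 TPM, Folr1, the folate receptor, 47.1 ± 10.9 TPM, and Clcn5, the endosomal chloride exchanger, 34.4 ± 7.46 TPM.

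Of the 39 transport genes, 34 (87.2%) were detected, against 60.9% of all nuclear protein-coding genes. In every control library 15 (38.5%) reached 10 TPM, under the 43.5% of all. The scaffold genes Slc9a3r1 and Pdzk1, which hold transporters in the brush border, stood highest, Slc9a3r1 with 156, 183 and 196 TPM and Pdzk1 with 95.6, 100.4 and 94.1 TPM, though 41.7% of the Pdzk1 exon bases overlap a gene on the other strand. Slc34a1 and Aqp1, the water channel of proximal tubule and descending thin limb, followed, with Aqp1 at 40.8, 73.4 and 84.3 TPM and lowest in control 1. Cltrn, the collectrin gene that helps amino acid transporters to the surface, averaged 55.4 ± 4.98 TPM. The second renal phosphate cotransporter, Slc34a3, had 5, 8 and 16 counts and averaged 0.52 ± 0.26 TPM, so the Slc34a1 level was 144 ± 43.4 times its level.

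Glucose transport showed the late-segment carrier above the early-segment carrier. Slc5a1, the high-affinity sodium glucose cotransporter, stood at 9.82, 11.9 and 9.54 TPM, and Slc5a2, the high-capacity cotransporter that carries most glucose in the adult kidney, stood at 4.13, 3.35 and 3.26 TPM. The ratio of Slc5a1 to Slc5a2 was 2.38, 3.55 and 2.93, above 1 in every control library. Of the Slc5a2 exon bases 20.6% overlap a gene on the other strand. Slc2a2, the basolateral glucose carrier, averaged 11.0 ± 2.08 TPM.

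Carriers for organic anions, cations and amino acids spanned a wide range. Slc22a6 and Slc22a8, the main basolateral anion transporters, averaged 15.2 ± 2.72 and 8.67 ± 2.58 TPM, and Slc22a12, the urate transporter, 17.4 ± 1.27 TPM. Slc47a1, an exporter of organic cations, averaged 31.9 ± 7.47 TPM. Slc3a1 and Slc7a9, the 2 subunits of the cystine transporter, averaged 11.4 ± 2.64 and 8.78 ± 1.42 TPM, whereas Slc6a19, the main carrier of neutral amino acids, averaged 2.03 ± 0.601 TPM. Slc9a3, the sodium proton exchanger of the brush border, averaged 6.68 ± 1.92 TPM and the bicarbonate exporter Slc4a4 18.1 ± 3.62 TPM. The 5 transport genes that were not detected were Slc17a3, Slc6a20b, Slc13a1, Slc34a3 and Slco1a1, and Slco1a1 had 1, 3 and 0 counts.

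Brush border enzymes stood among the most abundant proximal tubule genes. Of the 33 genes for brush border and metabolism, 27 (81.8%) were detected, against 60.9% of all nuclear protein-coding genes. In every control library 18 (54.5%) reached 10 TPM, against 43.5% of all. Enpep, aminopeptidase A, stood at 202, 262 and 192 TPM and Anpep, aminopeptidase N, at 108, 120.0 and 107 TPM. Ggt1, which breaks down glutathione, averaged 79.3 ± 3.59 TPM, Dpp4 92.0 ± 16.7 TPM and Vil1, the villin gene of microvilli, 25.5 ± 2.97 TPM.

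Enzymes of glucose synthesis were lower and less even. Fbp1 stood at 7.12, 20.1 and 24.8 TPM, Pck1 at 6.18, 17.4 and 20.6 TPM and G6pc, the last enzyme of the pathway, at 0.423, 2.95 and 2.52 TPM. All 3 genes were lowest in control 1, which did not overlap controls 2 and 3. Gatm, the enzyme that starts creatine synthesis, averaged 51.3 ± 6.09 TPM, and Ass1, of arginine synthesis, 29.2 ± 4.79 TPM. Miox, an inositol-degrading enzyme of mature tubule, averaged 2.65 ± 1.4 TPM. Treh, the trehalase gene, had 2, 1 and 4 counts, and Dpys and Acmsd also stayed under 1 TPM.

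Genes of the straight segment and of late maturation stood lowest of the 5 lists, with a median of 2.01 TPM. Of the 18 genes 10 (55.6%) were detected, under the 60.9% of all nuclear protein-coding genes. Ndrg1 (44.6 ± 2.77 TPM) and Napsa (38.9 ± 14.6 TPM), both also expressed outside the straight segment, led the list. Kap, the androgen-regulated kidney protein gene, had 9, 164 and 109 counts, so that control 1 lay far below controls 2 and 3. Cyp24a1, which inactivates vitamin D, stood at 0.451, 2.62 and 2.52 TPM, again low in control 1, and Cyp27b1, which activates it, averaged 1.41 ± 0.485 TPM. Slc7a13, the cystine and aspartate carrier of the straight segment in mice, averaged 2.14 ± 0.472 TPM. Cyp2e1, Cyp4a14, Slc22a7 and Serpina1f had at most 11 counts each over the 3 libraries.

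**Figure D2:**
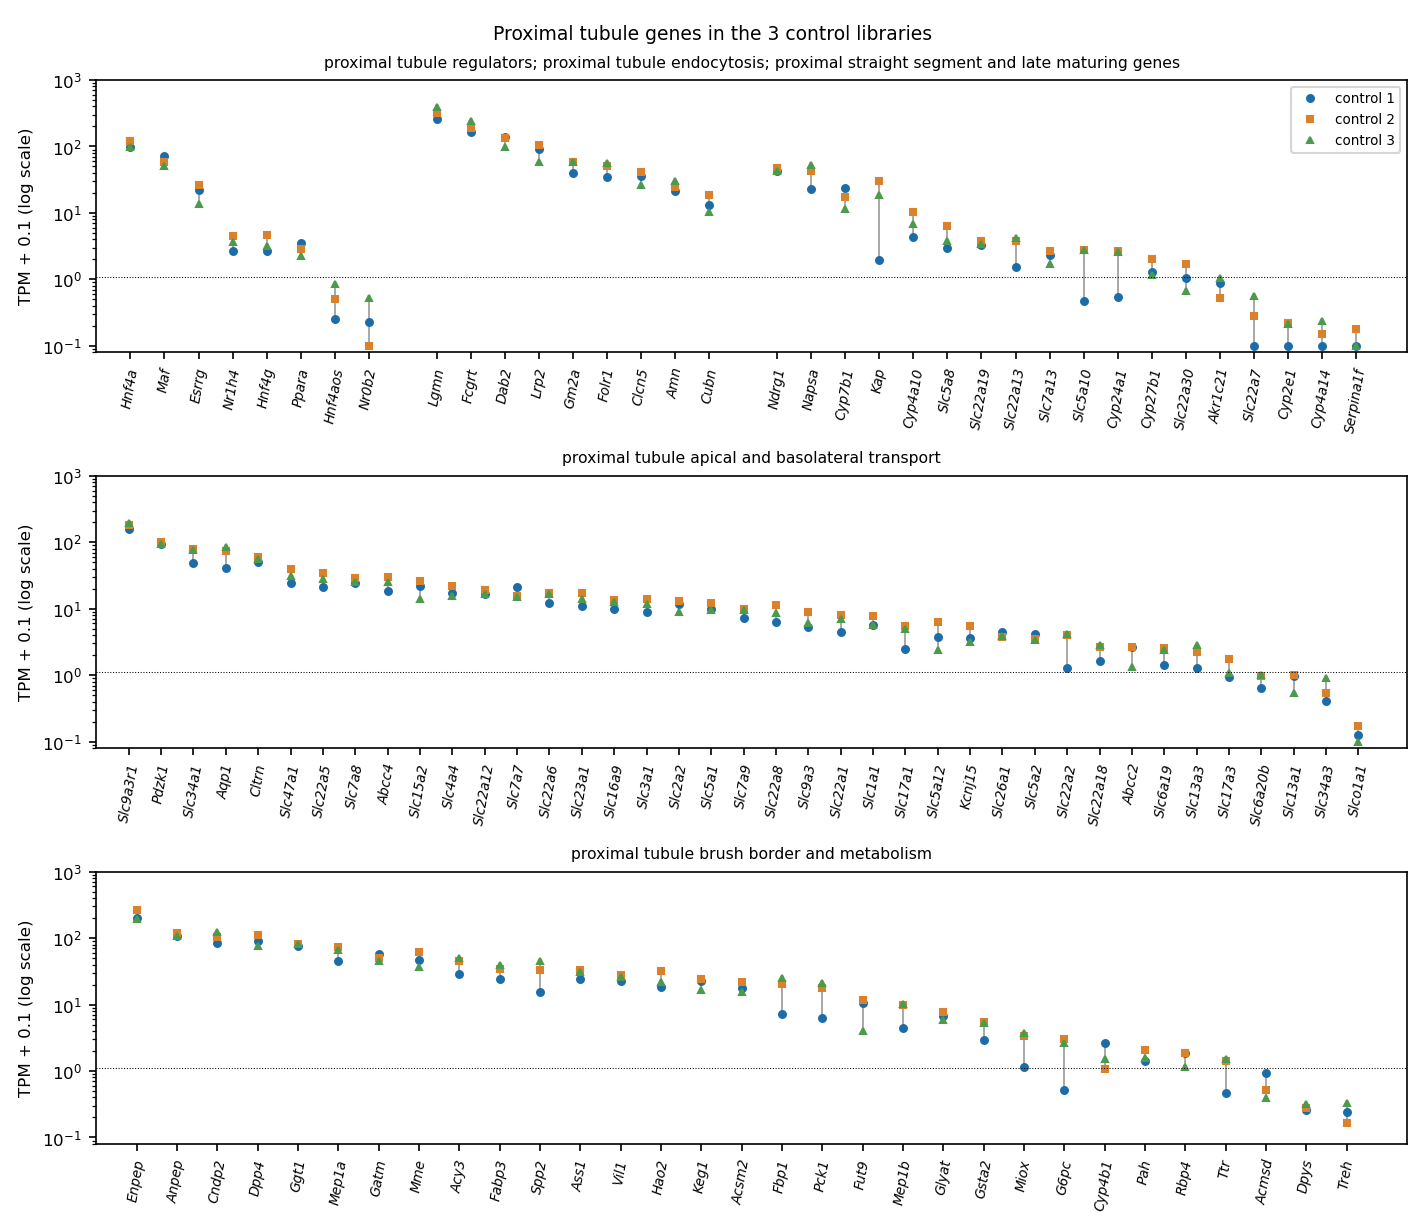
Levels of proximal tubule genes by list, as TPM plus 0.1 on a log scale, with 1 symbol per control library and a dotted line at 1 TPM plus 0.1; the top panel holds regulators, endocytosis and straight segment genes from left to right, the middle panel transport genes and the bottom panel brush border and metabolism. Endocytic genes all lie above 10 TPM, while most straight segment and late maturing genes lie under 10 TPM, with Kap, Slc5a10 and Cyp24a1 lowest in control 1.

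The 82 proximal tubule genes with a listed promoter were searched for the motifs above. The HNF4 letters occurred in 3 of them, Pdzk1, Slc3a1 and Treh. Among all 16492 nuclear protein-coding genes with a listed promoter, 0.552% held these letters, and the shares were not compared by a test. Pdzk1 was among the abundant transport genes while Treh was among the lowest genes, and 3 genes are too few to relate the letters to level. A TATA box occurred in 21 of the 82 genes and a GC box in 35, while over all 16492 nuclear protein-coding genes with a listed promoter 14.3% had a TATA box and 51.0% a GC box in at least 1 of them.

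Over nuclear protein-coding genes with a listed promoter, level went with the presence of the GC box and TATA box letters. A gene counts as holding a box when its letters lie anywhere in a listed promoter, on either strand. Promoter type and base content were not tested. The 8418 genes with a GC box had a median of 23.6 TPM, against 0.330 TPM in the 8074 genes without it. The 2362 genes with a TATA box had a median of 0.176 TPM, against 12.1 TPM in the 14130 genes without it. In the 3 libraries the median with a GC box was 22.7, 24.8 and 22.0 TPM, against 0.303, 0.362 and 0.298 TPM without. For CCAAT the median was 10.3 TPM with it and 8.65 TPM without. In genes with 1 listed promoter, a setting chosen after seeing the data, the median with a TATA box was 0.0463 TPM against 10.6 TPM without it, and that with a GC box was 23.5 TPM against 0.218 TPM. The CCAAT order turned round there, with 7.01 TPM with it and 7.08 TPM without. These medians cover the 16492 genes with a listed promoter of 21946 with a symbol of their own, and the letters searched overlap in part with CG-rich sequence.

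**Figure D3:**
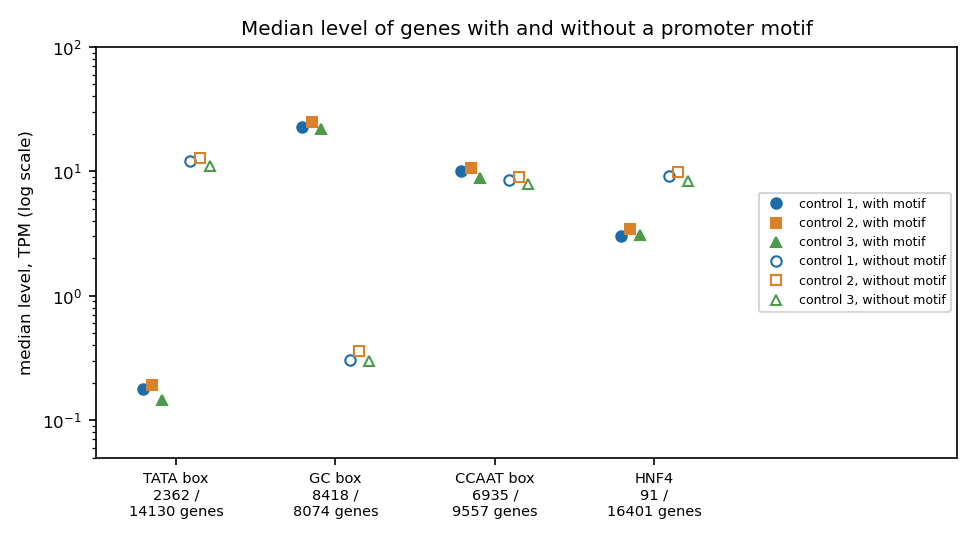
Median level in TPM (log scale) of genes with (filled symbols, left) and without (open symbols, right) each motif in a listed promoter, by control library, with the numbers of genes with and without it under each motif. The GC box goes with a median of 23.6 TPM against 0.330 TPM without it, and the TATA box with 0.176 TPM against 12.1 TPM, in the same order in all 3 libraries.

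Genes of cells earlier in nephron formation were detected throughout. All 20 nephron progenitor genes were detected, against 60.9% of all nuclear protein-coding genes. Of the 20, 15 (75%) reached 10 TPM in every control library, against 43.5%, and the list median was 52.5 TPM. Six2, which keeps progenitors undifferentiated, stood at 68.8, 71.8 and 71.9 TPM, and its ratio of highest to lowest library was the smallest in the list. Cited1, a marker of the least committed progenitors, stood at 27.5, 24.3 and 37.1 TPM. Sall1, Wt1 and Itga8 averaged 206 ± 28.8, 175 ± 24.1 and 155 ± 18.6 TPM. Wt1 is also expressed by podocytes and Itga8 by mesangial cells. Gdnf, the progenitor signal that drives ureteric branching, averaged 78.9 ± 14.8 TPM and Osr1, an early marker of the lineage, 5.96 ± 0.728 TPM.

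The renal vesicle list had the highest median of the 27 tissue lists, 109.8 TPM. All 25 genes were detected, against 60.9% of all nuclear protein-coding genes. Wnt4, the signal that turns progenitors into epithelium, stood at 128, 228 and 317 TPM, with the 3 libraries well apart and control 3 highest. Lhx1, a regulator of the renal vesicle, stood at 155, 264 and 219.9 TPM, Pax2 at 148, 243 and 211 TPM and Pax8 at 145, 226 and 197 TPM, each lowest in control 1. Jag1, a Notch ligand, averaged 194 ± 25.8 TPM, Lfng, which modifies Notch receptors, 214 ± 42.7 TPM, and Fgf8, a survival factor of the vesicle, 33.6 ± 12.2 TPM. Ccnd1, a cyclin, was highest in the list with 659 ± 119.9 TPM. Of the 25 genes 6 also belong to other lists, and the 19 that do not had a median of 88.0 TPM.

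Genes of cell division stood high. All 24 proliferation genes reached 10 TPM in every control library, against 43.5% of all nuclear protein-coding genes. Of the 24, 16 (66.7%) reached 100 TPM, against 6.49%, and the list median was 167 TPM. Mki67 stood at 235, 226 and 181 TPM, Top2a at 196, 207 and 187 TPM and the clamp gene Pcna at 222, 287 and 293 TPM. Early response genes that tissue digestion is known to induce were also high, with Fos at 257, 229 and 164 TPM, Egr1 at 219.6, 245 and 175 TPM and Jun at 230.0, 193 and 161 TPM. All 30 measured genes of that list were detected, against 60.9% of all nuclear protein-coding genes, with a median of 53.1 TPM. The part of these early response genes in other levels was not tested.

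Podocyte and parietal genes were detected too. Of 20 podocyte genes 18 were detected, against 60.9% of all nuclear protein-coding genes, and the list median was 16.9 TPM. Nphs1, the gene of the slit diaphragm protein nephrin, stood at 14.2, 8.51 and 8.12 TPM, with control 1 highest. Podxl, the coat protein of podocyte foot processes, stood at 136, 145 and 120.1 TPM, but endothelium makes it too. The leading genes of the list were Tcf21 (319.6 TPM), which stroma shares, and Cldn5 (249.9 TPM), which endothelium shares. The parietal list had a median of 89.6 TPM over 10 genes, with Akap12, Alcam and Pax2 on top and Cldn1 at 59.4, 76.4 and 47.9 TPM. Of these genes Pax2 and Cdh6 mark the early nephron as well and Prom1 was the sort antigen. The 8 genes that no other tissue list holds had a median of 56.5 TPM. Wif1 was the member not detected.

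Loop and distal segments followed. Umod, the uromodulin gene of the thick ascending limb, stood at 54.2, 130.3 and 143 TPM, with control 1 well below the others, and Slc12a1, the furosemide-sensitive cotransporter, stood at 62.2, 108 and 60.1 TPM. The list median was 11.7 TPM with 16 of 19 detected, against 60.9% of all nuclear protein-coding genes. Slc12a3, the thiazide-sensitive cotransporter of the distal convoluted tubule, stood at 4.73, 5.36 and 2.34 TPM, and the Slc12a1 level was 19.6 ± 6.28 times its level. S100g, a calcium-binding protein, was the highest distal gene with 111 ± 28.7 TPM, and the channels Trpm6 and Trpv5 averaged 1.52 ± 0.607 and 0.8 ± 0.307 TPM. In the thin limb list the median was 7.10 TPM, and 3.33 TPM over the 9 genes that no other list holds.

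Genes of the ureteric tip, the trunk and the principal cell were detected. Ret, the receptor of the ureteric tip, stood at 6.67, 11.6 and 9.69 TPM and Wnt11, a tip signal, at 27.5, 33.5 and 35.9 TPM, while Hoxb7 of the whole tree averaged 67.6 ± 13.2 TPM. Principal cell genes had medians of 18.1, 18.9 and 16.4 TPM in controls 1, 2 and 3. Of these 20 genes 18 were detected, against 60.9% of all nuclear protein-coding genes. Beside Aqp2, the sodium channel genes Scnn1a, Scnn1b and Scnn1g averaged 12.1 ± 4.64, 26.7 ± 5.1 and 14.8 ± 0.634 TPM. Hsd11b2, which inactivates glucocorticoid, averaged 40.1 ± 1.57 TPM. Nr3c2, the mineralocorticoid receptor gene, was low at 1.56, 1.4 and 0.885 TPM, and the glucocorticoid receptor gene Nr3c1 was 27.5, 30.5 and 32.3 times as high. Intercalated cell genes had a median of 7.45 TPM, with their regulator Foxi1 at 14.6, 9.67 and 12.0 TPM and the proton pump subunit Atp6v1b1 at 10.3, 11.2 and 10.9 TPM. Urothelium genes had a median of 0.647 TPM, with 4 of 13 detected.

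Stromal genes were detected at high levels. Of 24 stromal genes 22 (91.7%) were detected, 19 (79.2%) reached 10 TPM in every control library and 10 (41.7%) reached 100 TPM. Over all nuclear protein-coding genes these shares were 60.9%, 43.5% and 6.49%. Aldh1a2, the enzyme that makes retinoic acid, stood at 618, 715 and 705 TPM and Penk, a marker of medullary and papillary stroma, at 686, 568 and 671 TPM. Col3a1 and Fn1 averaged 629 ± 47.3 and 513 ± 83.0 TPM. Foxd1, the regulator of stromal progenitors, averaged 17.5 ± 1.08 TPM, and Pdgfra stood at 104, 87.5 and 64.4 TPM. The summed level of the list was 5379, 5352 and 5361 TPM in controls 1, 2 and 3, the most even in TPM of the lists plotted for spread. That evenness depends on the total that levels are scaled to. All nuclear protein-coding genes together summed to 791500.7, 877792.9 and 923272.5 TPM, lowest in control 1. Foxf1 and Tbx18, a gene of ureteral mesenchyme, were the 2 not detected, with means of 0.359 ± 0.0642 and 1.02 ± 0.481 TPM.

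All 18 genes of mural, mesangial and renin cells were detected, against 60.9% of all nuclear protein-coding genes. Acta2, smooth muscle actin, stood at 305, 394 and 461 TPM and the pericyte gene Rgs5 at 50.5, 59.5 and 55.9 TPM. Ren1, the renin gene, stood at 108, 65.6 and 148 TPM, with the 3 libraries well apart and control 2 lowest. Some mouse strains carry another, near-identical renin gene, and reads from it would be counted here. Myh11 and Cnn1, of mature smooth muscle, averaged 8.69 ± 0.809 and 2.27 ± 0.385 TPM.

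Against 60.9% of all nuclear protein-coding genes, 20 of 22 endothelial genes were detected. Their median was 47.9, 38.2 and 32.2 TPM in controls 1, 2 and 3, highest in control 1, while their summed level was 1124, 1065 and 1100.5 TPM. Plvap, of fenestrated vessels, stood at 229, 251 and 299.7 TPM, Cdh5, the endothelial cadherin, at 134, 131 and 106 TPM and Pecam1 at 66.1, 58.3 and 54.7 TPM. Ehd3, a marker of glomerular endothelium, averaged 17.5 ± 2.13 TPM and Gja5, of arterial endothelium, 3.26 ± 0.949 TPM. Prox1, of lymphatic endothelium, and Vwf averaged 1.1 ± 0.428 and 1.11 ± 0.281 TPM and were the 2 not detected in every control library. CD34, another surface antigen of vessels, has the gene Cd34 at 46.8, 44.7 and 39.0 TPM.

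Genes of macrophages and myeloid cells were detected, while those named of lymphocytes were low. Of 29 leukocyte genes 25 were detected, against 60.9% of all nuclear protein-coding genes, and the list median was 39.1 TPM. C1qa, a complement gene of tissue macrophages, stood at 256, 245 and 370.4 TPM and Csf1r, their growth factor receptor, at 121, 104 and 129 TPM. The neutrophil gene S100a9 stood at 599.8, 254 and 638 TPM, with control 2 far below the others, and its partner S100a8 followed it in each library with S100a9 at 2.28, 2.26 and 2.48 times its level. Elane, of immature granulocytes, stood at 26.6, 7.24 and 47.7 TPM. Cd3e, of T cells, had 0, 1 and 0 counts, and Cd79a, of B cells, averaged 1.47 ± 0.416 TPM.

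Red cell RNA was uneven. The summed level of the erythroid list was 829.6, 166 and 141 TPM in controls 1, 2 and 3, most of it from globin genes. Hbb-bs stood at 355, 46.7 and 43.7 TPM and Hba-a1 at 315, 49.3 and 55.6 TPM, each about as low in control 2 as in control 3 and several times higher in control 1. The alpha globin genes, like the beta globin genes, are near-identical copies, so their split is uncertain. The embryonic globin genes Hbb-bh1 and Hba-x had 0 counts in every control library, which allows up to 0.644 and 0.421 TPM by the limit of 3 counts.

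Tissues that should be missing gave a floor for these levels. The lists for skeletal and cardiac muscle, liver, adrenal and gonad, retina and brain, and pancreas, gut and lung had medians of 0.111, 1.01, 0.232, 0.155 and 0.0274 TPM. In each of these 5 lists, at most 3 of 13 or 14 genes were detected. The exceptions above 5 TPM were Afp (11.0 ± 1.09 TPM), Tnnt3 (9.45 ± 1.58 TPM), Foxj1 (7.49 ± 0.291 TPM) and Mc2r (6.27 ± 1.07 TPM), chosen after their values were seen. Nerve and Schwann cell genes had a median of 0.589 TPM, with Sox10 at 3, 2 and 0 counts.

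Over all 27 tissue lists, the medians fell into an order that was only partly resolved. The 8 highest were renal vesicle, parietal epithelium, stroma, mural cells, nephron progenitors, proximal tubule endocytosis, endothelium and leukocytes, and each overlapped the next in its range over the 3 libraries. The ureteric list came next at 23.9, 25.7 and 24.5 TPM and did not overlap the leukocyte list above it at 45.2, 35.0 and 47.7 TPM. Proximal tubule brush border (21.3 TPM), principal cell and podocyte lists followed, each overlapping its neighbour. Proximal tubule transport lay at 7.15, 11.3 and 8.73 TPM, overlapping its neighbours, the regulator and intercalated lists. The straight segment list and the erythroid list lay below all other kidney and blood lists except the urothelium, with nerve genes lower still, and the erythroid median of 2.28 TPM was 1.12 TPM without control 1. Over genes that no other tissue list holds, the renal vesicle, stroma, parietal and mural medians were 88.0, 64.0, 56.5 and 55.3 TPM. A list's median depends on which genes it holds, so the order is one of lists and not of cell numbers.

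**Figure D4:**
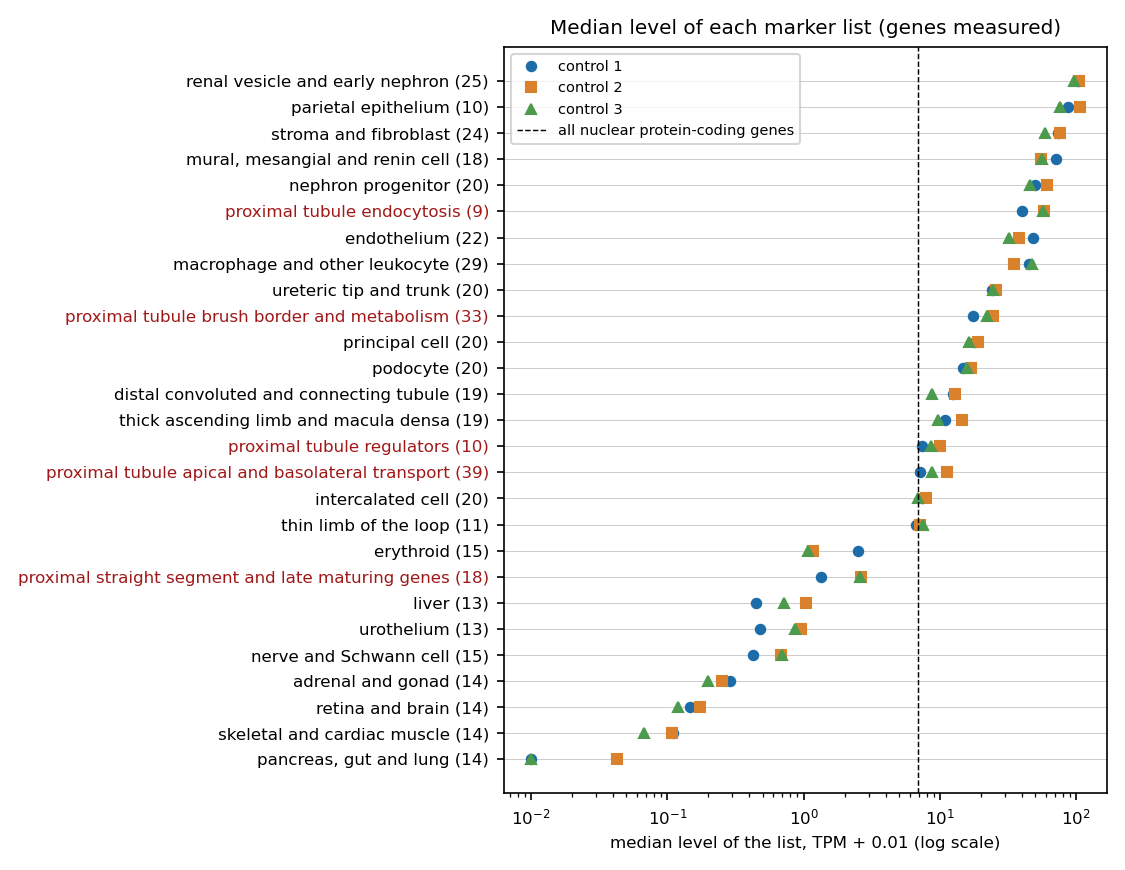
Median level of each tissue list, as TPM plus 0.01 on a log scale, with 1 symbol per control library, the number of genes measured in brackets, proximal tubule lists in red and a dashed line at the median of all nuclear protein-coding genes. The renal vesicle, parietal, stroma and mural lists stand highest, proximal tubule endocytosis stands next to nephron progenitors and proximal straight segment genes stand lowest of the red lists, while lists of other organs lie near or under 1 TPM.

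Families that segments share showed the same mixture. Of 23 claudins, which set the tightness of cell junctions, 15 were detected (65.2%), near the 60.9% of all nuclear protein-coding genes. The highest were Cldn5 of vessels and podocytes and Cldn6 of embryonic epithelium, at 249.9 ± 45.6 and 146 ± 4.5 TPM. Cldn2, the pore-forming claudin of the proximal tubule, stood at 33.7, 43.4 and 36.3 TPM, while Cldn16 and Cldn19 of the thick ascending limb averaged 6.19 ± 0.663 and 15.6 ± 2.52 TPM. Among 23 cadherins, Cdh16, the kidney-specific member, stood at 187, 228 and 238 TPM and Cdh11, a mesenchymal member, at 212, 214 and 163 TPM, and their ranges overlapped. Cdh6, of early nephron and proximal tubule, averaged 152 ± 33.8 TPM. Of 365 solute carrier genes 256 (70.1%) were detected, against 60.9% of all nuclear protein-coding genes. In every control library 8 (2.19%) reached 100 TPM, against 6.49% of all, led by the mitochondrial nucleotide carrier Slc25a5 with 756 ± 88.9 TPM rather than by a carrier of the cell surface.

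The genes of the pathway that the study altered in other groups were expressed here. Tsc1, the floxed gene, stood at 22.9, 21.2 and 15.8 TPM and Tsc2, which encodes its partner tuberin, at 56.3, 69.8 and 61.7 TPM, with Tsc2 at 2.46, 3.28 and 3.90 times the level of Tsc1. Mtor, the kinase they restrain, averaged 42.4 ± 4.92 TPM, and Rheb, the small GTPase between them, 35.1 ± 2.4 TPM. Fkbp1a, the binding protein through which rapamycin acts, averaged 269 ± 19.5 TPM. Of the 22 genes in the list 21 were detected, against the 60.9% of all nuclear protein-coding genes. None spread more than 2-fold between libraries on normalized counts, where 7.26% of all genes tested did.

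The spread between the 3 controls was measured on the authors' normalized counts. Of 13898 genes with a mean of at least 50, 1009 (7.26%) differed by more than 2-fold between the highest and the lowest control library. The median ratio was 1.34. Control 1 was the highest library for 618 of these 1009 genes and control 3 the lowest for 604. Without control 1 the count was 223, without control 2 it was 872 and without control 3 it was 365. Protein-coding genes over 2-fold made up 718 of 12987 (5.53%), whereas genes of the class TEC, transcripts still to be experimentally checked in the annotation, made up 117 of 193 (60.6%), and 95 of these 117 were highest in control 1. Without control 1 the TEC count was 38 of 146 tested (26.0%), against 1.61% of all genes tested.

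Among the genes with the widest spread, several kinds recurred. The 10 widest were the Y-linked genes Ddx3y, Eif2s3y and Kdm5d, the Kupffer cell gene Clec4f, 5 processed pseudogenes (Rps24-ps3, Rps3a3, Gm6768, Gm9825 and Atp6v0c-ps2) and the TEC gene Gm38381. Pseudogene counts depend on how reads shared with the parent gene were placed, and Rps24-ps3 had 1697, 3 and 7 counts. Clec4f, a receptor of Kupffer cells in the liver, had 125, 0 and 19 counts. Stab2 and Oit3, of liver sinusoid endothelium, had 648, 77 and 52 and 202, 34 and 23 counts. Control 1 was highest for all 6 genes of the liver sinusoid and Kupffer list, whose summed level was 44.1, 4.45 and 5.36 TPM, while the hepatocyte gene Alb averaged 1.08 ± 0.321 TPM, with control 1 between the other libraries. Their part in the other levels of control 1 was not tested. This list, and those for mast cells and myeloid granules, were written after the spread had been seen.

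Other genes were low in control 1 or high in control 3. Kap and Nr1h5, a nuclear receptor gene, were lowest in control 1, Nr1h5 with 47, 737 and 451 counts. The mast cell genes Tpsb2 and Cma1 had 34, 31 and 265 and 33, 20 and 154 counts, highest in control 3. The summed mast cell list stood at 12.7, 7.04 and 47.3 TPM and the summed myeloid granule list at 953, 397 and 1054 TPM. Ribosomal protein RNA was highest and mitochondrial RNA lowest in control 3, with summed levels of 53897, 59299 and 33248 TPM for the mitochondrial genes.

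Spread in the proximal tubule lists was counted with and without control 1. No gene of the proximal tubule regulator list (8 tested) or endocytosis list (9 tested) spread more than 2-fold. In the transport list 5 of 34 tested genes did (14.7%), in the brush border list 5 of 23 (21.7%) and in the straight segment list 5 of 7 (71.4%), against 7.26% of all genes tested. Without control 1 the counts were 1 of 35 in the transport list, 1 of 23 in the brush border list and 0 of 9 in the straight segment list, against 1.61% of all genes tested. Leaving out any library can only keep or lower the ratio of a gene, and the lists were not counted without control 2 or 3. The summed level of all proximal tubule lists was 3139, 3999 and 3709 TPM in controls 1, 2 and 3, and was lowest in control 1. The sum over all nuclear protein-coding genes was lowest there too, at 791500.7, 877792.9 and 923272.5 TPM. With Gm42418, Gm26917, AY036118 and Lars2 left out of the total that levels are scaled to, 89 proximal tubule genes were detected in place of 88. Without control 1 the count was 92, and leaving out a library can only keep or raise such a count.

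**Figure D5:**
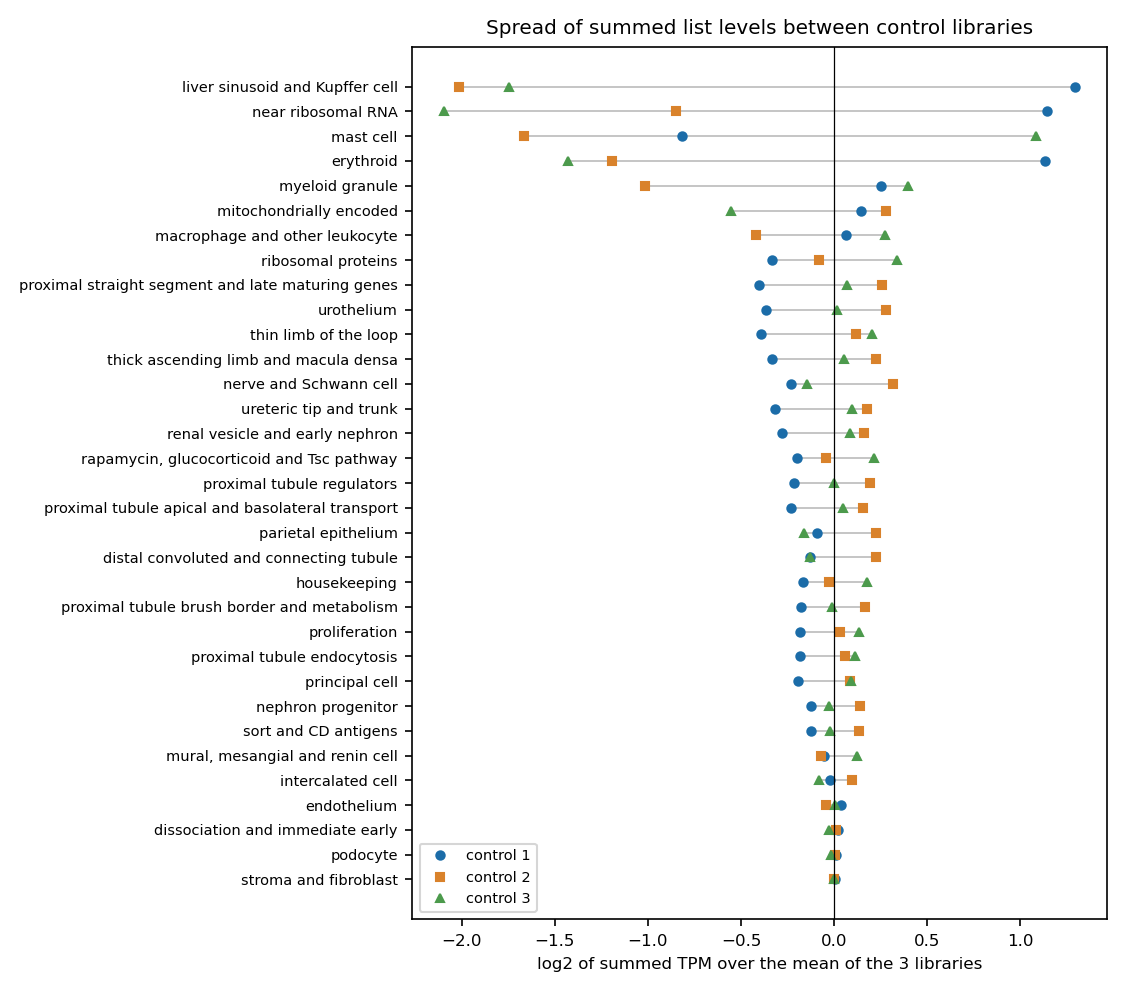
Summed level of each list in each control library, as log2 of the sum over the mean of the 3 libraries, with lists ordered from the widest range at the top to the narrowest at the bottom. Control 1 is far above the others for liver sinusoid, ribosomal RNA and erythroid lists, control 3 for the mast cell list, and the stroma, podocyte and endothelium lists differ little. Sums are in TPM with no gene left out of the total, of which nuclear protein-coding genes held least in control 1.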

How the data were processed

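Messenger RNA of the 3 control libraries was read from 1 table that the authors deposited for all 9 libraries. It holds raw read counts and normalized counts for 54838 genes. Raw counts were present for 48586 genes, while 6252 genes show a question mark instead, so the columns were handled as other values and no count model was run. The normalized counts that the authors deposited are their raw counts scaled by a size factor for each library, and dividing by it returned them to within a relative difference of 5.33e-15. The size factors were 0.909, 1.11 and 1.09 for controls 1, 2 and 3. The submitters' processing notes name DESeq2 1.22.1, HTSeq 0.6.0, TopHat2 2.1.1 and the trimmer cutadapt, with the build GRCm38. The kit marked strand, per the labels, but for the annotation release, strand setting and handling of reads that match several places, the options were not given in the sources used here.

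TPM was computed here from the raw counts over the bases covered by any exon of a gene in GENCODE M21, with python 3.11.15, pandas 2.3.3 and numpy 2.4.6. The table and that annotation share 54809 gene identifiers, 98.7% of them at the same coordinates, and the coordinates printed are those of the table. The steps were tested on simulated data with planted changes, counting error only and the same exon lengths. That test checks the arithmetic and cannot show error in exon length or in spread between the real libraries. Spread was measured on the authors' normalized counts for genes with a mean of at least 50. No test between groups was planned or made. Reads are not independent molecules, and limits made from 3 counts cover counting error only.

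The members and gene lists were chosen with earlier results of these data known. The rule for named genes took the 20 most abundant nuclear protein-coding genes, the 5 most abundant of other biotypes, the 10 with the widest spread, the marker genes and list members, of each list mainly the highest and the defining markers that are low. The promoter search, the abundant matrix genes, and the lists for liver sinusoid, mast cell, myeloid granule and sex-linked genes were added after seeing the data. Promoters came from a RefSeq table and were matched by symbol. Alternatives changed the exon length, the total, the detection threshold, the scaling and the filter, and left out each library in turn. Some list members that the rule for named genes covers are not reported here, though they count in the totals.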

Additional observations from a re-analysis of the deposited data

How the results depend on the processing

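The count of detected genes, 13405, lay between 11986 and 14153 under other exon lengths, totals and thresholds, and between 13479 and 13600 when a library was left out. The count of detected proximal tubule genes, 88, stayed within 69 to 92, and within 88 to 92 when a library was left out. Leaving out a library can only keep or raise both counts, because detection asks for 1 TPM in every library. The TPM share of the 100 most abundant genes, 27.7%, was 20.6% with mitochondrial genes and genes that overlap ribosomal RNA out of the total, and 23.5% with Gm42418, Gm26917, AY036118 and Lars2 out of it, an alternative chosen after seeing the data. Without a library it lay between 25.3% and 28.9%. The count of genes spread over 2-fold, 1009, was 2869 with a mean of at least 10 and 6243 with 1 count in each library as the filter. Without a library it lay between 223 and 872, the lowest without control 1. Of the further values, 57 moved by more than the spread between libraries or by over 1.5 times and 433 did not. Among those that moved were 5 of the 6 medians with or without a TATA, GC or CCAAT box in genes with 1 listed promoter, and the spread counts of the transport, brush border, straight segment and TEC genes without control 1, all chosen after seeing the data. No paired analysis was possible because 1 group was described. Limits: 3 libraries, 1 group, unknown pooling, unknown strand setting, and levels that depend on the exon bases counted per gene.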
